A study of Mus musculus with 8 samples.

Results

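The total RNA of day 12 in vitro germ cells was described from the 2 input arrays of a series of 8 arrays. A gene was counted as detected when at least 1 of its probes was well above background, by the array software's own flag, on both input arrays. Of 27677 genes on the array, 18569 were detected (67.1%), and they were ranked by the mean over both arrays of the log2 processed signal minus that array's 75th percentile, called the normalised signal here. A normalised signal of 0 is therefore the brightness of the 75th percentile of all gene probes. No contrast between conditions was made, so no test was run. The spread is that between the 2 arrays.

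The cells were derived from mouse embryonic stem (ES) cells of the V6.5 line, of mixed C57BL/6 and 129SV strain, that carried Dazl-GFP-V5, the germ cell RNA-binding protein DAZL joined to green fluorescent protein and the V5 tag. Feeder cells were depleted on plastic, and the ES cells were then kept for 12 days in a differentiation medium on gelatin, which gave cells that the labels call primordial germ cells (PGCs). The labels name no sort for GFP, no dose and no growth factor for the input. The study compared RNA recovered with tagged DAZL (V5 IP and GFP IP, 2 arrays each) with a mock IP with normal mouse IgG (2 arrays) and with the input. All 4 groups came from cells with the same tagged Dazl at the same day, and the input had no antibody. Labels number the input samples 1 and 2 without saying whether they were separate cultures, so their spread may be technical in part. In each group, slide 1 held the array of replicate 1 and slide 2 that of replicate 2, so replicate and slide cannot be told apart.

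PGCs are the embryonic precursors of sperm and eggs. They keep a pluripotency network around Pou5f1, which encodes OCT4, while they switch on germ cell genes such as Dppa3, Kit, Dazl and Ddx4, and after they reach the gonad they enter meiosis or mitotic arrest. ES cells left to differentiate without a sort form mixed cultures in which cells of the 3 germ layers and undifferentiated cells can lie side by side. In RNA from such a bulk sample, fewer cells of a type and less RNA per cell cannot be told apart.

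On input 1, 70.5% of 41174 gene probes were well above background, and on input 2, 67.4%. Of 153 negative-control spots, 1 was well above background on input 1 and 4 on input 2. Over probes well above background on both arrays, the log2 signals had a Pearson r of 0.993 across probes, which are not independent replicates. The median absolute difference between the arrays over detected genes was 0.17 on the log2 scale, and it was 0.13 for abundant, 0.15 for intermediate and 0.30 for dim genes. Abundant means here the top 10% of detected genes (normalised signal of at least 3.59, 1857 genes, 6.71% of all genes) and dim the lowest 25% (at most -3.24, 4642 genes, 16.8%). Of the rest, 12070 detected genes were intermediate, 1413 genes (5.11%) were detected on 1 input array only and 7695 (27.8%) on neither. Among the 19503 genes with a current RefSeq symbol, which are closer in kind to the listed genes, 79.7% were detected, 8.73% abundant, 16% dim, 4.23% detected on 1 array and 16.1% not detected. Different probes bind their targets with different strength, so ranks are ranks of signal and not of transcript number.

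All 5 germ cell markers were detected on both arrays, and 1 of them was abundant. For comparison, 79.7% of genes with a RefSeq symbol were detected and 8.73% were abundant. The abundant marker, Pou5f1, is also a defining gene of the pluripotency list. Pou5f1 had processed signals of 18400 on input 1 and 19600 on input 2, which gave normalised signals of 4.24 and 4.17 and the 93.4 percentile of detected genes. Dppa3, also called Stella, a maternal and PGC factor that protects DNA methylation, had signals of 9370 and 7450 (normalised 3.27 and 2.77, percentile 86.2). Dazl had signals of 7430 and 7760 (2.93 and 2.83, percentile 85.0). Both arrays therefore placed these 3 genes in the upper part of the detected range, with Pou5f1 the brightest on each array. Kit, the receptor tyrosine kinase on which PGC survival depends, had signals of 5414 and 5198 (2.47 and 2.25, percentile 80.3). Ddx4, the DEAD-box helicase of the germ cell granule, had signals of 2030 and 1760 (1.06 and 0.69, percentile 65.1). In the order Pou5f1, Dppa3, Dazl, Kit and Ddx4, the values of Dppa3 and Dazl on the 2 arrays overlapped, and no other neighbours in that order did. Dazl has 2 probes, and the mean normalised signal of the dimmer one was -0.04. With the mean of all probes of a gene, Kit (percentile 87.5) ranked above Dazl (80.7), so their order depends on the probe rule. Whether either Dazl probe reads the tagged transcript was not analysed here.

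**Figure D1:**
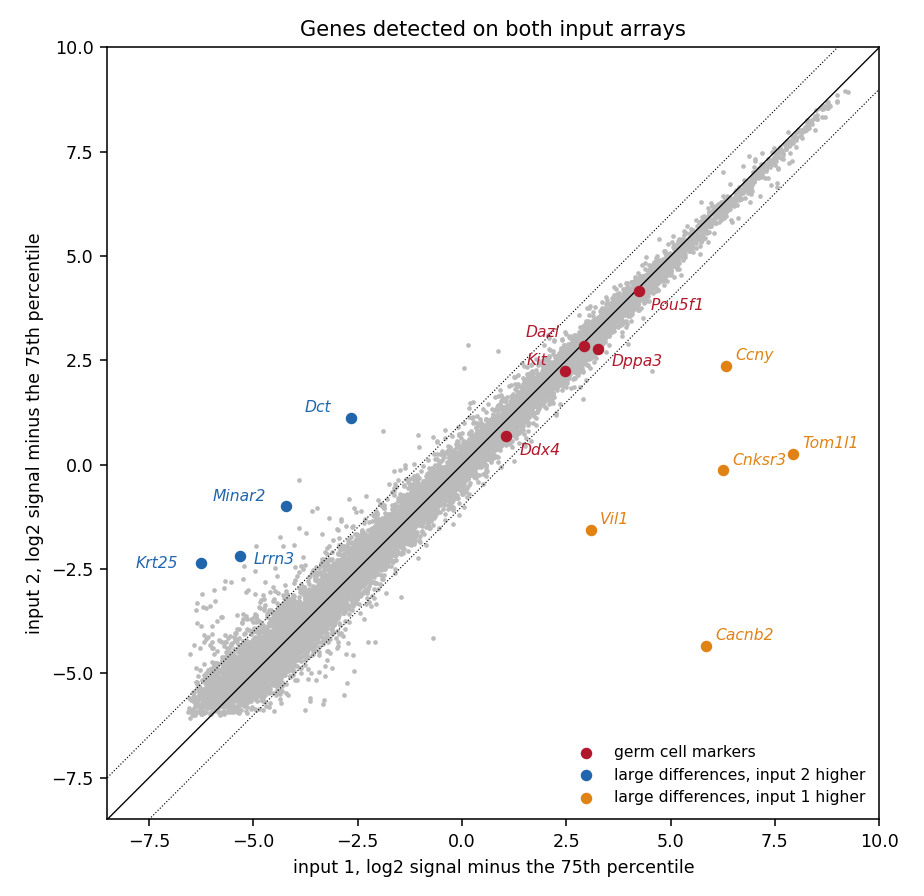
Each point is a gene detected on both input arrays, with the normalised log2 signal on input 1 (horizontal) and input 2 (vertical). The solid line marks equal values and dotted lines a 2-fold difference. The 5 germ cell markers (red) lie close to the line, and named genes with large differences in either direction (blue, orange) lie far from it.

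The promoters of genes in different signal classes are shown as the 150 bases before the annotated start, since the CpG content described further on differs between these classes. They come from RefSeq on GRCm38.p6, each read 5′ to 3′ on the gene's strand, with every CpG in capitals. Dazl lies at chr17:50293621-50293770 (minus strand), Ddx4 at chr13:112652311-112652460 (minus), Kit at chr5:75574837-75574986 (plus) and Pou5f1 at chr17:35505882-35506031 (plus). Stra8, an abundant meiosis gene, lies at chr6:34920798-34920947 (plus), and Rps18, the brightest gene of the input, at chr17:33955666-33955815 (minus). Nanos2, a gene of male germ cells that was not detected, lies at chr7:18987374-18987523 (plus).
Dazl: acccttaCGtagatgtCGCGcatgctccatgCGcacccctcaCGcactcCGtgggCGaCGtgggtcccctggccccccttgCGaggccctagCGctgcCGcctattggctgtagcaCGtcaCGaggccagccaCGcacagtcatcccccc
Ddx4: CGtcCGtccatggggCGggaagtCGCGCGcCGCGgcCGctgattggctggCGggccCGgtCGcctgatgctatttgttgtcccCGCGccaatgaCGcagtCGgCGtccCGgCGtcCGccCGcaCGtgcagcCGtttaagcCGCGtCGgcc
Kit: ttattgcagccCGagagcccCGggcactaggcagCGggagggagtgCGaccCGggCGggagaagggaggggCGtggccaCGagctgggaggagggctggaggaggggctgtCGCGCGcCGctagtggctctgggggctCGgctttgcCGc
Pou5f1: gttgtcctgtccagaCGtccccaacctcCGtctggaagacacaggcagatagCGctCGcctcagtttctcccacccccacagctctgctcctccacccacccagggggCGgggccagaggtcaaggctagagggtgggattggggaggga
Stra8: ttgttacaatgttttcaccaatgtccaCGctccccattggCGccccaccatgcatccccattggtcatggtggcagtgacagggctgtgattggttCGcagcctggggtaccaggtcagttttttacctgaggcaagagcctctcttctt
Rps18: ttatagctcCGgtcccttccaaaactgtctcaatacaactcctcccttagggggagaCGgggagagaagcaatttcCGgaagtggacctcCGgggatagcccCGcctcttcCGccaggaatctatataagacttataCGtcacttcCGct
Nanos2: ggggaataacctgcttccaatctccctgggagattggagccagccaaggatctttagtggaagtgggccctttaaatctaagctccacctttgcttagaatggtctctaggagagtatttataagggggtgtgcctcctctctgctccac
In the shown stretch, Ddx4 had 26 CpGs, Dazl and Kit 14 each, Rps18 8, Pou5f1 5, Stra8 3 and Nanos2 0.

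Every measured gene of the early germ cell list, made of genes of PGC specification and migration, was detected (25 of 25, against 79.7% of genes with a RefSeq symbol). Of these, 7 were abundant (28%, against 8.73%) and 1 was dim (against 16%). The list was chosen with earlier results of these data known, so its detected share describes the members and tests nothing. The highest members were Rhox9, Rhox6 and Rhox5, X-linked reproductive homeobox genes. Rhox9 had normalised signals of 7.18 on input 1 and 7.46 on input 2, Rhox6 6.74 and 7.15, and Rhox5 6.70 and 6.36. Among the genes that define PGC fate, the AP2 factor Tfap2c was abundant (3.77 and 3.79). Dnd1, which encodes a germ cell RNA-binding protein, was intermediate (1.24 and 0.98). Prdm1, which encodes BLIMP1, the repressor at the top of PGC specification, was also intermediate (-1.39 and -1.44). Nanos3, a translational repressor that PGCs need to survive, was close to the upper bound of the dim class (signals of 128 and 136, mean normalised signal -2.97). The 3 lowest members were Fut4 (-2.86 and -2.51), which makes the SSEA1 antigen, Nanos3, and the migration receptor Cxcr4, which was dim (-3.87 and -3.97). The members lay between the 18.4 and the 99.3 percentile of detected genes, with the median member at the 80.3 percentile against 55.2 over detected genes with a RefSeq symbol.

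Genes of later germ cells, mostly of the piRNA pathway and germ cell granules, were mostly detected but dimmer. Of 33 measured, 29 were detected (87.9%), 1 was abundant, 5 were dim, 2 were detected on 1 array and 2 on neither. Of genes with a RefSeq symbol, 79.7% were detected, 8.73% abundant and 16% dim. The median detected member of the list lay at the 50.04 percentile. The brightest was Fkbp6, a piRNA cofactor, at 3.97 and 3.56. Mael, a repressor of transposons, had 2.67 on input 1 and 1.85 on input 2, a difference larger than the median of 0.17 over detected genes. Tdrd12, a Tudor-domain partner of PIWI proteins, had 3.18 and 2.59. The PIWI gene Piwil2 was intermediate at -0.65 and -0.85, and the Tudor scaffold Tdrd1 at -2.02 and -2.50. At the lower end, Piwil1 (-6.10 and -5.72), the spermatogonial receptor Gfra1 (-5.96 and -5.59) and the oocyte homeobox gene Nobox (-5.73 and -5.23) were detected but dim. Nanos2, which directs the male germ cell fate, and Tdrd6 were not detected, and Figla and Henmt1 were detected on 1 array only.

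Meiosis genes covered a wide range of signals. Of 37 measured, 34 were detected (91.9%), 2 were abundant, 6 were dim, 1 (Msh4) was detected on 1 array and 2 on neither. Of genes with a RefSeq symbol, 79.7% were detected, 8.73% abundant and 16% dim. Stra8, the retinoic-acid target that opens meiosis, had signals of 99200 on input 1 and 101000 on input 2, normalised 6.67 and 6.53, and lay at the 98.8 percentile. Syce2, of the central element of the synaptonemal complex, was also abundant (4.69 and 4.60), while the cohesins Smc1b (3.59 and 3.40) and Rec8 (3.43 and 3.32) were just under the abundant class. The axis gene Sycp3 (0.00 and -0.41) and the recombinase Dmc1 (-0.17 and -0.37) lay near the middle of the detected range. Sycp2 (-4.18 and -3.78), the transverse filament gene Sycp1 (-4.09 and -3.97) and Spo11 (-4.09 and -4.04), which makes the meiotic double-strand breaks, were all dim. Terb1 (-4.91 and -4.55) and Tex11 (-5.18 and -5.41) were the lowest detected members, and Prdm9, which places meiotic breaks, and Mei4, needed to form them, were not detected. On both arrays Stra8 was therefore abundant while the genes for breaks and for the mature synaptonemal complex were dim, intermediate or not detected, apart from Syce2.

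Genes of spermatids and oocytes were the least often detected among the germ cell lists. Of 28 measured, 17 were detected and 11 were not, against 16.1% not detected among genes with a RefSeq symbol. Ooep, an oocyte and early embryo gene, was abundant (4.06 and 3.69), and no other member was. Ldhc, the sperm lactate dehydrogenase, was intermediate at 0.50 and 0.11, and Oas1d had -1.27 and -1.48. Among defining members, the zona pellucida gene Zp3 (-1.38 and -1.71), the transition protein gene Tnp1 (-1.94 and -2.07), the oocyte growth factor Gdf9 (-2.81 and -2.48) and the protamine gene Prm1 (-2.93 and -2.54) were intermediate. Prm2 (-4.03 and -4.80) and the acrosomal Acrv1 (-5.30 and -4.97) were dim, with Izumo1 and Gapdhs. Bmp15, Odf1, Akap4, Spata16, Smcp and Pgk2 were among those not detected.

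**Figure D2:**
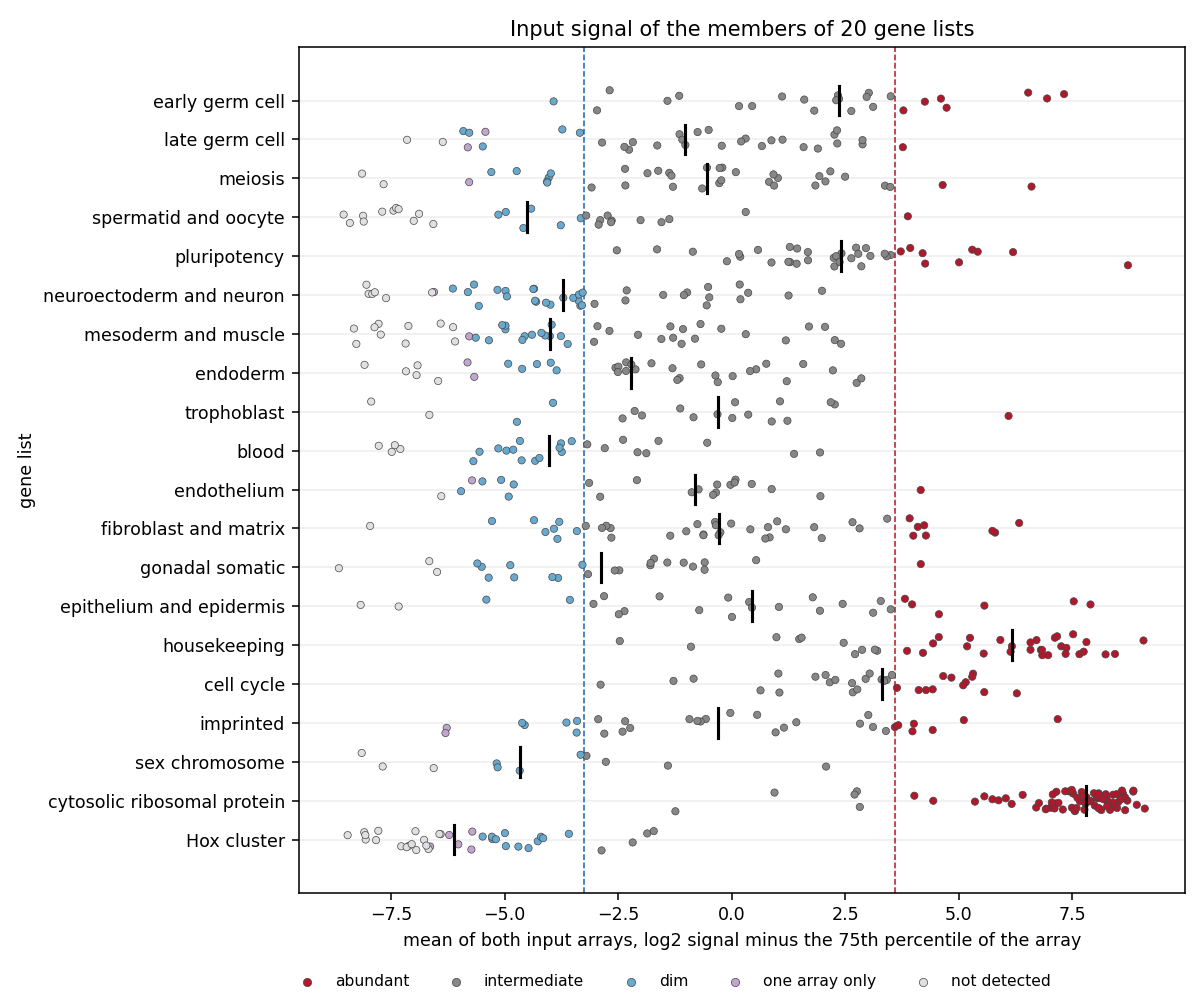
Each point is a measured gene of 1 of 20 lists, placed by its mean normalised log2 signal over both input arrays and coloured by class, with the median of each list as a black bar. Dashed lines mark the upper bound of the dim class (-3.24, blue) and the lower bound of the abundant class (3.59, red). The early germ cell, pluripotency, housekeeping, cell cycle and ribosomal protein lists were detected in full. Lists were chosen with earlier results of these data known.

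All 38 measured pluripotency genes were detected, against 79.7% of genes with a RefSeq symbol. Of these 38, 9 were abundant (23.7%, against 8.73%) and none was dim (against 16%). This list, too, was chosen with earlier results of these data known. Dppa5a, a gene of ES cells and PGCs, was among the 12 brightest named genes of the whole input, with signals of 419000 and 454000 (normalised 8.75 and 8.70). Klf2, a naive pluripotency factor, had 6.33 and 6.06, and Tdh, a threonine dehydrogenase of ES cells, 5.51 and 5.32. Of the defining genes, Zfp42, which encodes REX1, was abundant (5.38 and 5.22), as were Pou5f1 and Klf4 (3.56 and 3.88). Sox2 (3.59 and 3.41), Esrrb (2.75 and 2.73) and Nanog (2.45 and 2.39) were intermediate, at the 80.7 percentile or above. The lowest members were the DNA demethylase Tet1 (-0.80 and -0.91), the epiblast gene Fgf5 (-1.05 and -2.24) and Foxd3 (-2.26 and -2.80). Fgf5 was the only member over 2-fold apart between the arrays, and its 4 values on slide 1 lay above its 4 values on slide 2. The list's median member lay at the 80.6 percentile, beside 80.3 for the early germ cell list. The lists share Dppa4, Sall4 and Lin28a, and many of their genes are known from both ES cells and PGCs.

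Members of 9 lists of other cell types, also chosen with earlier results of these data known, were mostly detected as well. Counting each gene once, 239 of 278 were detected (86.0%, against 79.7% of genes with a RefSeq symbol), 17 were abundant (6.12%, against 8.73%) and 76 were dim, with the median detected member at the 39.9 percentile. Of their 62 defining genes, 56 were detected, 1 was abundant (Sfn), 20 were dim, 1 (Tie1) was detected on 1 array and 5 (Ttr, Gcm1, Ptprc, Hba-x and Spi1) on neither. The summed linear normalised signal of the 278 genes was 1133 on input 1 and 1138 on input 2. Their part in the germ cell signals was not tested.

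The epithelial list had the highest median percentile of the 9 (66.8). It had 25 of 27 genes detected (92.6%, against 79.7% of genes with a RefSeq symbol) and 6 abundant (22.2%, against 8.73%). The simple-epithelium keratins led it, with Krt18 at 7.93 and 7.88, Krt8 at 7.48 and 7.58 and Krt19 at 5.40 and 5.73. Sfn, an epithelial 14-3-3 protein, was abundant (4.72 and 4.41), and Krt14 (1.73 and 1.84) and Krt10 (-0.18 and 0.20) were intermediate. The epidermal master regulator Trp63 (-2.48 and -2.24) and the basal keratin Krt5 (-2.46 and -3.16) were intermediate, and Krt1 was dim (-3.62 and -3.51). The late epidermal genes Ivl and Dsg3 were not detected. Krt8, Krt18 and Krt19 were thus abundant, and the keratins of layered skin named here were not. The list also holds Cdh1 and Epcam, which the early germ cell list has too.

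Of 42 measured fibroblast and matrix genes, 41 were detected (97.6%, against 79.7% of genes with a RefSeq symbol). Of these, 8 were abundant (19.05% of the list, against 8.73%). S100a6, a calcium-binding protein (6.31 and 6.35), the matrix glycoprotein gene Sparc (5.89 and 5.71) and the galectin gene Lgals1 (5.61 and 5.87) were the highest. None of the 7 defining genes was abundant, although the type I collagen genes Col1a2 (2.69 and 2.63) and Col1a1 (1.47 and 0.92) were intermediate. The pericyte receptor Pdgfrb (0.87 and 0.80), Thy1 (0.39 and -0.42), Col3a1 (-0.41 and -0.83) and Postn (-0.58 and -0.93) were intermediate too, and Twist1 was dim (-3.78 and -4.05). The lowest members were Dcn, Lox and Lum, and the fibroblast activation gene Fap was not detected. Feeder cells are fibroblasts, and the labels say they were depleted, so signal from remaining feeder cells and from cells that arose in culture cannot be told apart.

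The endoderm list had 28 of 35 genes detected (80.0%, against 79.7% of genes with a RefSeq symbol) and none abundant (against 8.73%). The basement membrane collagen genes Col4a2 (2.98 and 2.73) and Col4a1 (2.77 and 2.73) and the retinol carrier Rbp4 (2.51 and 1.95) led it. Afp, which encodes alpha-fetoprotein of yolk sac and fetal liver, was intermediate at 0.49 and -0.45. The endoderm factors Gata6 (-1.04 and -1.26), Foxa2 (-1.16 and -1.45) and Sox17 (-2.44 and -2.67) were intermediate, and Hnf4a (mean -3.98) and Gata4 (-4.29 and -4.29) were dim. The yolk sac and liver genes Ttr, Alb and Fabp1 were not detected, nor were Foxa1 and Cer1, and Foxa3 and Pdx1 were detected on 1 array only.

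The mesoderm and muscle list had 32 of 43 genes detected (74.4%, against 79.7% of genes with a RefSeq symbol). In this list none was abundant (against 8.73%) and 14 were dim (against 16%). The cardiac genes Myl4 (2.30 and 2.52) and Nppb (2.08 and 2.03) and Hand1 (2.02 and 2.52), a factor of heart and trophoblast, were its highest. Cardiac troponin Tnnt2 (-1.38 and -1.72) and Nkx2-5 (-3.12 and -2.94) were intermediate, while Myh6 (-3.44 and -4.57), Mesp1 (-4.45 and -4.67), Myod1 (-5.15 and -4.81) and T (-5.35 and -5.34), which encodes Brachyury of the primitive streak, were dim. Mixl1, Hand2, Tbx20, Mef2c, Ryr2 and Pln were among 10 members not detected.

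Of 41 measured neural genes, 34 were detected (82.9%, against 79.7% of genes with a RefSeq symbol). None was abundant (against 8.73%) and 20 were dim (against 16%). The synaptic gene Syn1 (2.05 and 1.93), the neuronal tubulin Tubb3 (1.26 and 1.25) and the microtubule regulator Stmn2 (0.32 and 0.40) were the highest. Nes, an intermediate filament of neural progenitors, was intermediate (-0.05 and 0.44), and Sox1 (-3.81 and -3.60), Map2 (-4.07 and -3.91) and Neurog2 (-4.83 and -5.13) were dim. Neurod4, Dcx, Pax3, Irx3 and En1 were not detected, and Neurod1 was detected on 1 array. Where every probe of a gene had to be detected, 20 neural genes remained in place of 34.

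Trophoblast, blood and endothelial genes differed in rank. In that order, 89.5%, 84.6% and 90.9% were detected, against 79.7% of genes with a RefSeq symbol. Of the latter, 8.73% were abundant and 16% dim. Of 19 trophoblast genes, 17 were detected and 1 was abundant: Krt7, a keratin of trophoblast and other simple epithelia (5.99 and 6.20). The placental hormone gene Prl3d1 (0.18 and 0.55), Gata3 (-0.10 and 0.13), the spongiotrophoblast gene Tpbpa (-1.04 and 0.41) and Cdx2 (-2.44 and -1.83) were intermediate, Elf5 was dim (-4.04 and -3.83) and Gcm1 was not detected. Of 26 blood genes, 22 were detected, none abundant and 13 dim, and the median detected member lay at the 20.1 percentile. The macrophage genes Cd68 (2.01 and 1.88) and Csf1r (1.24 and 1.51) led them, Runx1 was intermediate (-1.80 and -2.34), Gata1 (-3.62 and -3.90), Tal1 (-4.91 and -5.01) and the embryonic globin gene Hbb-bh1 (-5.81 and -5.30) were dim, and the pan-leukocyte gene Ptprc, Spi1 and Hba-x were not detected. Of 22 endothelial genes, 20 were detected. Egfl7 was abundant (4.35 and 3.97), Flt1 followed (1.87 and 2.04), and Cdh5 (-0.12 and 0.29), Vwf (-0.37 and -0.27), Pecam1 (-0.16 and -0.53) and Tek (-1.80 and -2.37) were intermediate, with Kdr (-5.32 and -4.83) and Emcn (-6.44 and -5.48) dim.

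Genes of the gonad's somatic cells, which surround PGCs in the embryo, had 21 of 24 members detected and 8 dim. The detected share was 87.5%, against 79.7% of genes with a RefSeq symbol, of which 16% were dim. Gadd45g, which acts in sex determination and in stress responses, was the only abundant member (4.11 and 4.22), followed by Insl3 (0.43 and 0.65) and Rspo1 (-0.48 and -0.70). The Sertoli gene Sox9 (-2.06 and -1.36), Inha (-1.91 and -1.66), Cyp17a1 (-1.88 and -1.70) and Wt1 (-2.27 and -2.68) were intermediate. Nr5a1 (-3.50 and -3.07), Foxl2 (-3.90 and -3.75) and Amh (-5.78 and -5.23) were dim, and Sry, Lhx9 and Emx2 were not detected. The markers that define Sertoli and granulosa cells thus lay below the median detected gene.

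**Figure D3:**
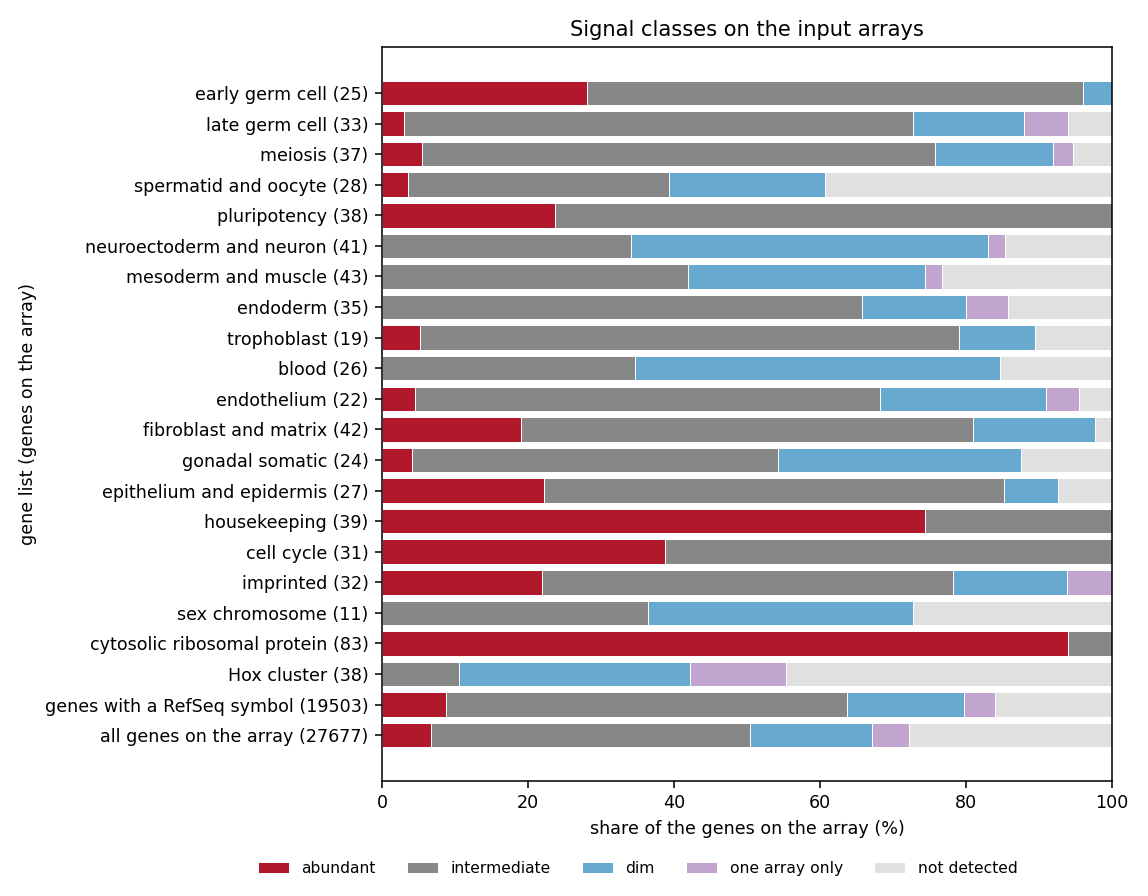
Bars give the share of the genes on the array, in percent, that were abundant, intermediate, dim, detected on 1 input array only or not detected, for 20 lists and for all genes, with the number of genes in parentheses. The ribosomal protein list has the highest abundant share (78 of 83 genes), and the Hox list has more undetected (17 of 38) than detected members (16).

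Ribosomal protein genes were frequent at the top of the ranking. The 12 brightest named genes were Rps18 (9.26 and 8.94), Aldoa (9.17 and 8.96), Rpl7a, Rps23, Rps14, Dppa5a, Rpl41, Rpl8, Rps2, Rpl32, Ptprz1 and Rpl5 (8.65 and 8.59). Of 83 cytosolic ribosomal protein genes, all were detected and 78 were abundant (94.0%). Among genes with a RefSeq symbol, 79.7% were detected and 8.73% abundant. The lowest ribosomal protein genes were Rpl7l1 (2.73 and 2.68), Rpl21 (0.85 and 1.03) and the muscle paralog Rpl3l (-1.23 and -1.25). Ribosomal protein genes and some other bright genes have many near-identical copies in the genome, so their probes may share signal. All 39 housekeeping genes were detected, 29 of them abundant (74.4%, against 8.73%) and none dim (against 16%). Aldoa, a glycolysis enzyme, led that list, and Rplp0 (8.30 and 8.17) was among its 3 highest members. Widely used reference genes fell in the abundant and the intermediate class: Pgk1 (7.37 and 7.14), Hprt (5.32 and 5.05) and Ppia (4.70 and 4.42) were abundant, and B2m (2.77 and 2.97), Actb (1.48 and 0.49) and Tbp (-0.91 and -0.89) were intermediate. Polr2a was the lowest housekeeping gene (-2.53 and -2.40). The brighter of 2 Actb probes differed by 0.99 between the arrays, the largest difference in this list, whose median was 0.16. The dimmer Actb probe differed by less (-1.49 and -1.59), so the large difference was that of 1 probe.

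All 31 cell cycle genes were detected (against 79.7% of genes with a RefSeq symbol), 12 of them abundant (38.7%, against 8.73%). The replication licensing genes Mcm6 (6.37 and 6.19) and Mcm7 (5.69 and 5.43), the anaphase activator Cdc20 (5.53 and 5.10) and the clamp gene Pcna (5.22 and 5.09) were abundant. Ccnb1 (3.15 and 2.93), Cdk1 (3.09 and 2.81), Mki67 (2.44 and 2.86) and Top2a (1.23 and 0.88), which peak in dividing cells, were intermediate. The lowest were the inhibitors Cdkn1b (-0.90 and -0.77) and Cdkn2a (-1.15 and -1.41), and Cdk2 (-2.87 and -2.90). The list's median member lay at the 88.2 percentile.

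Of 32 imprinted genes, whose parental marks are erased in PGCs, 30 were detected (93.8%, against 79.7% of genes with a RefSeq symbol). Of these, 7 were abundant (21.9% of the list, against 8.73%). Igf2, the fetal growth factor (7.03 and 7.33), and its neighbour H19 (4.94 and 5.28) were highest, and Cdkn1c (4.49 and 4.36), Dlk1 (4.01 and 4.01), Meg3 (3.92 and 4.05) and Mest (3.44 and 3.74) were abundant too. Snrpn (1.28 and 1.03) and Peg3 (-0.86 and -0.28) were intermediate, Mirg, Magel2 and Zim1 dim, and Airn and Nap1l5 were detected on 1 array only. Members expressed from the maternal copy (H19, Cdkn1c, Meg3) and from the paternal copy (Igf2, Dlk1, Mest) were thus both abundant, and the array does not read alleles.

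Some Y-linked genes were detected, and Xist was not. Of 11 measured genes of the sex chromosome list, 8 were detected (72.7%, against 79.7% of genes with a RefSeq symbol). On the whole Y chromosome, 7 of 17 genes were detected (41.2%, against 79.9% of autosomal genes). Eif2s3y, a translation factor (2.10 and 2.06), and the helicase gene Ddx3y (-1.52 and -1.29) were intermediate, as was Zfy1 (-2.57 and -2.97), and Kdm5d (-5.19 and -5.15) and Rbmy (-4.84 and -4.50) were dim. Uty and Usp9y were not detected. Xist, the noncoding RNA that coats an inactive X chromosome, had -8.55 and -6.82, while its antisense partner Tsix was dim (-5.36 and -4.95).

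Of 38 genes of the Hox clusters, which pattern the body axis and are held silent in ES cells, 16 were detected (42.1%). Among these 16, 12 were dim and none was abundant. Of genes with a RefSeq symbol, 79.7% were detected, 16% dim and 8.73% abundant. Hoxb6 (-1.57 and -1.86) and Hoxc4 (-2.27 and -2.09) were among the highest. Hoxa4, Hoxb4 and Hoxd13 were the lowest detected members, 5 (Hoxc5, Hoxd12, Hoxd3, Hoxd4 and Hoxd8) were detected on 1 array and 17 on neither. All 4 clusters had a detected member.

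Promoter CpG content followed the signal classes. Over the 250 bases before the start, a promoter was called CpG-rich when its observed over expected CpG ratio was at least 0.6 and its GC content at least 50%. Among genes with a RefSeq promoter, 1004 of 1414 abundant (71.0%), 5193 of 8533 intermediate (60.9%), 633 of 2402 dim (26.4%) and 280 of 2454 undetected genes (11.4%) were CpG-rich, against 46.7% of all 15451. The share was lower in each dimmer class. TATAAA on either strand within the last 60 bases was found in 2.62% of abundant and 8.39% of undetected genes, against 4.26% of all. Among the lists, 24 of 30 housekeeping, 11 of 25 pluripotency, 5 of 16 early germ cell, 16 of 29 late germ cell, 15 of 29 meiosis and 0 of 21 spermatid and oocyte promoters were CpG-rich. The early germ cell list thus had a lower CpG-rich share than the late germ cell list, but a higher median signal (2.36 against -1.02).

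The E-box CACGTG, which holds a CpG itself and reads the same on both strands, was searched in the same 250 bases. It was present in 1114 of 15451 promoters (7.21%), in 12 of 29 late germ cell promoters (41.4%), in 6 of 29 meiosis promoters (20.7%), in 2 of 25 pluripotency promoters and in 0 of 16 early germ cell promoters. The late germ cell genes with it were Ddx4, Mael, Tdrd1, Piwil1, Tdrd9, Mov10l1, Pld6, Stk31, Taf7l, Slc25a31, Brdt and Fkbp6, and their signals ran from abundant (Fkbp6) to dim (Piwil1). In the Ddx4 promoter shown above it lies near the start, as caCGtg. The match is a description of letters, not of a bound site.

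**Figure D4:**
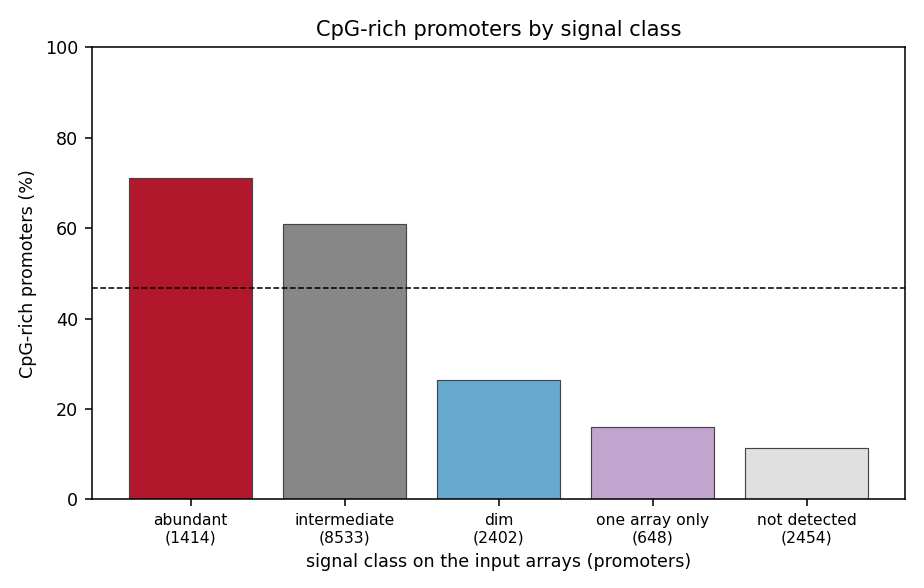
Bars give the percentage of CpG-rich promoters (250 bases before the start, RefSeq) in each signal class of the input arrays, with the number of promoters in parentheses, and the dashed line marks 46.7% over all 15451. The share is highest for abundant genes (71.0%) and lowest for undetected genes (11.4%).

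With the processed signal, few detected genes differed by more than 2-fold between the 2 input arrays: 342 of 18569 (1.84%), of which 253 (1.36%) were higher on input 2 and 89 (0.479%) on input 1. Of the 342, 233 were dim, 107 intermediate and 2 abundant. The 2 abundant genes were Tom1l1 and Ccny, both higher on input 1. The Tom1l1 spot lies in one of the bright places of input 1 described below, and the Ccny spot (row 459, column 25) beside another. The count of genes over 2-fold apart was 109 among the upper 75% of detected signals. With the normexp background correction it was 6079, and 93 when 2 spots of high local background on input 1 were left out of that correction. Among the largest differences toward input 2 were those of Krt25 (normalised -6.25 and -2.35), Dct (-2.66 and 1.13), Minar2 (signals of 52.4 and 544) and Lrrn3 (-5.32 and -2.20). Dct makes melanin precursors in pigment cells. For Dct, Minar2 and Lrrn3, all 4 arrays of slide 2 lay above all 4 of slide 1, which held for 442 of the detected genes (2.38%) and for 96 of the 253. Krt25 did not show this. Both probes of Dct had this order, but a second, dimmer detected probe of Minar2 did not (-4.84 and -4.73 on the inputs), and the other probe of Lrrn3 was not detected. The reverse, all 4 arrays of slide 1 above all 4 of slide 2, held for 408 detected genes (2.2%) and for 18 of the 89. The 253 and the 89 genes were picked by their input values, which are part of these orders. Their shares are therefore partly fixed by that choice and are no separate support.

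Of 664 list genes on the array, 12 were detected and over 2-fold apart, beside 269 of 19503 genes with a RefSeq symbol. Whether list genes differed more often was not tested. The largest differences of list members toward input 2 were in Zic1 (-5.71 and -2.95) and Pax6 (-1.89 and 0.79), factors of neural and eye development. On the mock, V5 and GFP arrays, Pax6 had -2.81, -0.51 and -0.61 on slide 1 and 0.82, 1.06 and 0.92 on slide 2, so every slide 2 value was higher. The eye and pigment genes Rax, Six6, Pmel, Tyr and Tyrp1 were looked up after these values were seen. Rax had -4.73 and -2.80 on the inputs and was higher on all 4 arrays of slide 2, and so was Six6 (-8.40 and -4.47), which was well above background on input 2 only. Pmel had -1.38 and -0.08, with overlapping slides, and Tyr and Tyrp1 were not detected. Among trophoblast genes, Tpbpa, Prl7d1 (signals of 1170 and 3080) and Ctsq (-1.64 and -0.63) were over 2-fold higher on input 2. In the opposite direction, Apoa1 (-3.25 and -4.46), Fgf5, the testis antigen gene Tex101 (1.25 and 0.08) and Myh6 were over 2-fold higher on input 1.

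Of the 253 genes higher on input 2, 42.3% were also over 2-fold higher on replicate 2 of the mock IP, 47.0% on replicate 2 of the V5 IP and 49.4% on replicate 2 of the GFP IP, against 6.70%, 6.75% and 5.83% of all detected genes. Of the 89 higher on input 1, 34.8%, 17.98% and 23.6% were also over 2-fold higher on replicate 1 of those groups, against 6.03%, 4.78% and 2.89% of all detected genes. The shares over all detected genes were not matched for signal. Dim genes made up 233 of the 342 genes, and between the inputs 5.02% of dim genes were over 2-fold apart, against 1.84% of all detected genes. Part of the difference between the inputs was also present between replicates 1 and 2 of the IPs. Whether it belongs to the cells or to the slides cannot be told apart.

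**Figure D5:**
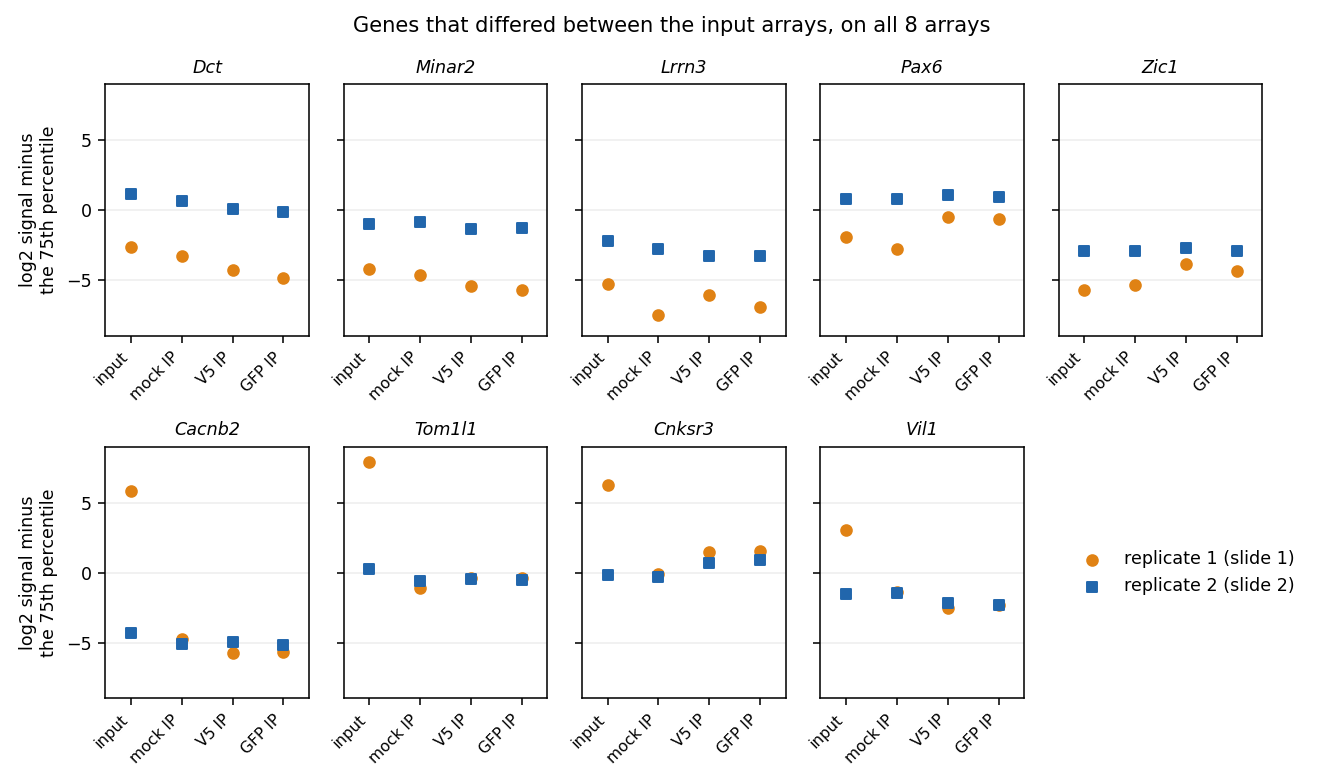
Normalised log2 signals of 9 genes on all 8 arrays, with replicate 1 (slide 1) as circles and replicate 2 (slide 2) as squares. In the top row (Dct, Minar2, Lrrn3, Pax6, Zic1) every square lies above every circle, and in the bottom row (Cacnb2, Tom1l1, Cnksr3, Vil1) only the input circle stands apart.

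The largest differences toward input 1 were of another kind. Cacnb2, a calcium channel subunit gene, had a normalised signal of 5.84 on input 1 and -4.34 on input 2, and between -5.72 and -4.34 on the other 7 arrays. Tom1l1 (7.93 and 0.25), Cnksr3 (6.25 and -0.14), Vil1 (3.08 and -1.55) and Ccny (6.32 and 2.36) followed. For each of these 5 genes, input 1 lay above every other array. The spots lay close together on the array. Of 15 probes that were over 16-fold brighter on input 1 than on every other array, 13 had another such probe within 4 rows and 2 columns, in 3 places (8 probes in rows 419 to 426, 3 in rows 461 to 464 and 2 in rows 258 to 260). Within the second of these places, 2 further spots had a local background of 18972 and 18093, against a median of 39 on that array. The only saturated probes of input 1, for Zbtb40 and Mrps33, lay in these places. Vil1 is an endoderm list member, and its other probe had -0.87 and -1.06, so its rank in that list rests on a spot in 1 of these places. Without the 13 probes, no count of list members detected or abundant moved by over 1.5 times.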

How the data were processed

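Each of 2 input RNA samples was hybridised to its own Agilent mouse array in 1 colour, Cy3. Per the file headers, the deposited array files hold linear spot intensities read with Agilent Feature Extraction 9.1.3.1; for the processed intensity the background was subtracted and a spatial trend removed, a spot not above background got a surrogate value, and values are written to 3 digits. A second file, deposited for all samples together, holds median-normalized signal and a quality score, per the file headers. Its 45018 entries were matched to spots by that deposited score (tolerance 1e-05), and its signal served as an alternative, as log2 of the authors' signal plus 0.1.

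Here, log2 of the processed intensity was averaged over the spots of a probe without outlier spots, control spots were left out, and each array's 75th percentile over 41174 gene probes was subtracted. The brightest detected probe stood for its gene. Probes were renamed by RefSeq's genes for GRCm38.p6: an accession named 22951, a symbol still in use 6659 and a synonym 3096, while 8468 kept the file's name. Of 691 list entries, 674 matched the array. The members and lists were chosen with earlier results of these data known. Named in each list were its defining genes, the 3 highest members, the 3 lowest detected members, up to 6 undetected members and those detected on 1 array. The 12 brightest genes and the 5 largest differences in each direction were named too, without clone names. List members over 2-fold apart, Six6, Rax, Pmel, Tyr, Tyrp1 and the genes with an E-box were named after their values were seen. Some genes that this rule names are not reported here. The ranking was checked on simulated data in which detection was set in advance and no bright places were simulated. That check cannot speak to the detection flag or to such places. Normexp used limma 3.58.1 in R 4.3.3. With 2 arrays, precision is limited by their number.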

Additional observations from a re-analysis of the deposited data

Results flagged for a closer look

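Of 7695 genes not detected on either input array, 32 were well above background on both V5 and both GFP arrays and on no mock array, a signal on arrays other than those on which genes were called detected. In all, 43 genes were well above background on those 4 arrays, and 6499 (84.5%) were so on none of the other 6 arrays. Among list members there were 2 such genes, Foxa1 of the endoderm list and Hoxa10 of the Hox clusters. Foxa1 had normalised log2 signals of -6.80 and -7.55 on the inputs, -7.18 and -7.13 on the mock arrays, -3.23 and -3.32 on the V5 arrays and -3.22 and -3.27 on the GFP arrays. Hoxa10 had -8.40 and -7.72 on the inputs, -7.03 and -7.18 on the mock arrays, -4.59 and -4.61 on the V5 arrays and -4.65 and -4.27 on the GFP arrays. Values not well above background have no reliable order. The difference between inputs and IPs was not tested. A gene called not detected in the input may thus still give signal in the IPs.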

How the results depend on the processing

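Of 354 counts recomputed under another setting, 344 stayed within 1.5 times and 10 moved; of 384 values in all, 360 stayed within that or within the spread between the arrays, 24 moved and 0 reversed. Genes over 2-fold apart between the inputs numbered 342, but 109 among the upper 75% of detected signals, 6079 with normexp (offset 50) and, in an alternative chosen after seeing the data, 93 with normexp without 2 spots of high local background on input 1. With those spots in the fit, negative-control spots of input 1 had a median of 555 after normexp, against 63.0 on input 2, and 61.4 without them. Requiring every probe of a gene left 20 of 34 neural genes detected. With names as in the array file, 5 of 8 sex chromosome genes were detected, and 0 in place of 1 spermatid and oocyte gene was abundant. With the mean of detected probes, 0 in place of 1 late germ cell gene was abundant. With 1 of 2 arrays enough, 458 input-undetected genes were well above background in mock IP (22 with both), 644 in V5 IP (94) and 510 in GFP IP (65). With the mean of all probes, marker percentiles were 80.7 for Dazl, 95.6 for Pou5f1, 87.5 for Kit, 91.2 for Dppa3 and 76.4 for Ddx4. Without replicate 1 or 2, no count of detected or abundant genes moved by over 1.5 times. No paired analysis was possible because the results come from no test and from a single group. Detection, rank and class rest on 2 arrays, and dim genes are the least precise.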

Other observations

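Probes of 1 gene often disagreed. Of 8059 detected genes with more than 1 probe, 2929 had at least 1 probe that was not detected, and the median span between a gene's dimmest and brightest probe was 3.68 on the log2 scale. Ptprz1, a receptor phosphatase of neural progenitors, ranked among the 12 brightest named genes although only 2 of its 4 probes were detected, and its dimmest probe had a mean normalised signal of -8.65. Rps2 (lowest probe -8.44) and Esrrb (brightest 2.74, lowest -3.20) showed the same kind of spread. A rank by the brightest probe is therefore an upper reading of the gene.

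By chromosome, 79.9% of autosomal genes with a RefSeq symbol were detected, between 72.1% and 85.6% on single autosomes. On the X chromosome 532 of 718 genes were detected (74.1%), and on the Y chromosome 7 of 17 (41.2%). The X share thus lay within the range of the autosomes and the Y share below it.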
